A study of Mus musculus with 7 samples.

Results

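The genes described here are the mouse proteasome genes, taken as every row of the count table whose symbol begins with Psma to Psmg followed by a digit. There were 54 such rows among 55228, and 49 of them carried enough reads to be tested, among 15798 genes tested in all. Of the 54 rows, 48 are known subunits, regulators or assembly chaperones of the proteasome and 6 match by name alone. RNA was measured by RNA-seq in primary granulosa cells, the somatic cells of the ovarian follicle that make oestradiol and nurse the oocyte. The samples were 3 libraries from Fhl2 KO mice, which are labelled as knockouts of a gene for a LIM-domain scaffold protein, and 4 libraries from wild-type (WT) mice. Both groups were of the C57BL/6J strain and untreated. The sources used here give neither the allele, nor the age of the animals, nor how many animals stand behind a library, and p-values therefore cover only how these libraries vary, which may in part be technical.

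The proteasome is the protease that degrades proteins tagged with ubiquitin. Its 20S core is a barrel of stacked rings, the outer ones built of alpha subunits and the inner ones of beta subunits, of which Psmb5, Psmb6 and Psmb7 carry the active sites. The 19S cap recognises ubiquitin chains, unfolds the substrate with a ring of ATPases and feeds it into the core. In immune cells, and in other cells exposed to interferon, Psmb8, Psmb9 and Psmb10 replace the catalytic beta subunits and form the immunoproteasome, which generates peptides for class I antigen presentation.

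Library totals lay between 38855596 and 50514556 counts. Fhl2 itself stood at 47.9, 66.8 and 60.4 CPM (counts relative to the TMM-scaled library size) in Fhl2 KO libraries 1 to 3, against 101, 114, 106 and 109.9 CPM in WT libraries 1 to 4, a log2 fold change of -0.88 ± 0.107 (SE; edgeR quasi-likelihood test, adjusted p = 3.29e-05), so transcript from the gene was still counted in the knockout. Summed granulosa markers lay between 4283 and 5187 CPM in Fhl2 KO cells and between 4836 and 5391 CPM in WT cells. Single markers moved apart: of 10 tested, 3 were higher, where 13.5% of all genes were, and 5 were lower, where 15.6% were. Summed markers of other ovarian cells also differed: fibroblast and smooth muscle markers summed to 626 to 660.4 CPM in Fhl2 KO cells and to 1203 to 1357 CPM in WT cells, and ovarian surface epithelium markers to 139 to 180.1 CPM in Fhl2 KO cells and 107 to 124 CPM in WT cells. Theca markers summed to 31.3 to 36.2 CPM in Fhl2 KO cells and 44.6 to 49.0 CPM in WT cells. Most of this sum was Ptch1, at 34.9, 29.5 and 32.5 CPM in Fhl2 KO libraries and 44.0, 48.1, 47.7 and 48.2 CPM in WT libraries. Tcf21 averaged 0.430 CPM in Fhl2 KO cells and 0.928 CPM in WT cells. Cyp17a1 had at most 3 counts in any library and Insl3 at most 2. Lhcgr went the other way, with 10, 16 and 10 counts in Fhl2 KO libraries and 0, 2, 0 and 0 in WT libraries. Markers of lung, a tissue outside the ovary, summed to 0.792 to 23.1 CPM in Fhl2 KO cells and 0.0209 to 0.154 CPM in WT cells. The 2 tested, Sftpc and Sftpb, met the count filter only through the Fhl2 KO libraries, where they were high. Their calls as higher therefore add no support. Counts also depended on transcript length in a way that differed between libraries. The slope of log2 CPM per doubling of length was -0.000713, -0.174 and -0.136 in Fhl2 KO libraries 1 to 3, and 0.0847, 0.0600, 0.0850 and 0.0801 in WT libraries 1 to 4. Proteasome transcripts are short, with a median of 1430 bases over the 49 tested genes against 2773 bases over all genes tested. For this reason each change is given as measured and, where it matters, after the length and GC trend of each library was removed, called the corrected value below. The part of RNA quality or of cell composition in these changes was not tested, and in bulk samples fewer cells of a type and less RNA per cell cannot be told apart.

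Many proteasome genes were higher in Fhl2 KO granulosa cells, most of them by small amounts. Of the 49 tested genes, 26 passed as higher (53.1%, against 13.5% of all genes tested), 2 passed as lower (4.08%, against 15.6% of all genes), and 21 did not pass an adjusted p of 0.05 (edgeR quasi-likelihood test, adjusted over all genes). The median log2 fold change was 0.28 over the 49 genes and -0.00 over all genes, and 39 of the 49 values were positive. In 24 of the genes all Fhl2 KO libraries stood above all WT libraries, which 16.4% of all genes did. In 3 of them all stood below, against 17.7% of all genes, and in the other 22 the groups overlapped. With the corrected values, 12 of the 49 genes were higher, or 24.5%, against 12.0% of all genes, 3 were lower, or 6.12%, against 10.8% of all genes, and the median was 0.08. The calls depended on single libraries. Without Fhl2 KO library 1, 30 of the 49 genes were called higher (20.6% of all genes) and 4 lower (21.1% of all genes). Without Fhl2 KO library 2 these counts were 16 higher (8.94%) and 1 lower (10.6%), and without Fhl2 KO library 3 they were 5 higher (4.09%) and 0 lower (6.14%). The 5 genes were Psma1, Psma2, Psmb4, Psmb8 and Psme2b. With Fhl2 KO library 1 alone set against WT, 1 gene was called higher, Psmb8 (1.63% of all genes), and 0 lower (2.97% of all genes), a share close to that of all genes, in a fit whose spread comes from the WT libraries alone. Leaving out WT library 1, 2, 3 or 4 gave 19, 24, 17 and 16 genes higher, where 9.66%, 12.3%, 8.73% and 8.14% of all genes were called higher, and 2, 2, 0 and 0 genes lower, where 11.3%, 13.5%, 10.5% and 10.8% of all genes were. A correction for length alone left 8 genes higher (9.85% of all genes) and 6 lower (9.56% of all genes). A fit with the replicate number as a block left 15 higher (7.87% of all genes) and 2 lower (13.3% of all genes), and the same 6 libraries without the block 16 higher (8.14%) and 0 lower (10.8%). limma voom with quality weights called 29 higher (19.8% of all genes) and 4 lower (21.5% of all genes).

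**Figure D1:**
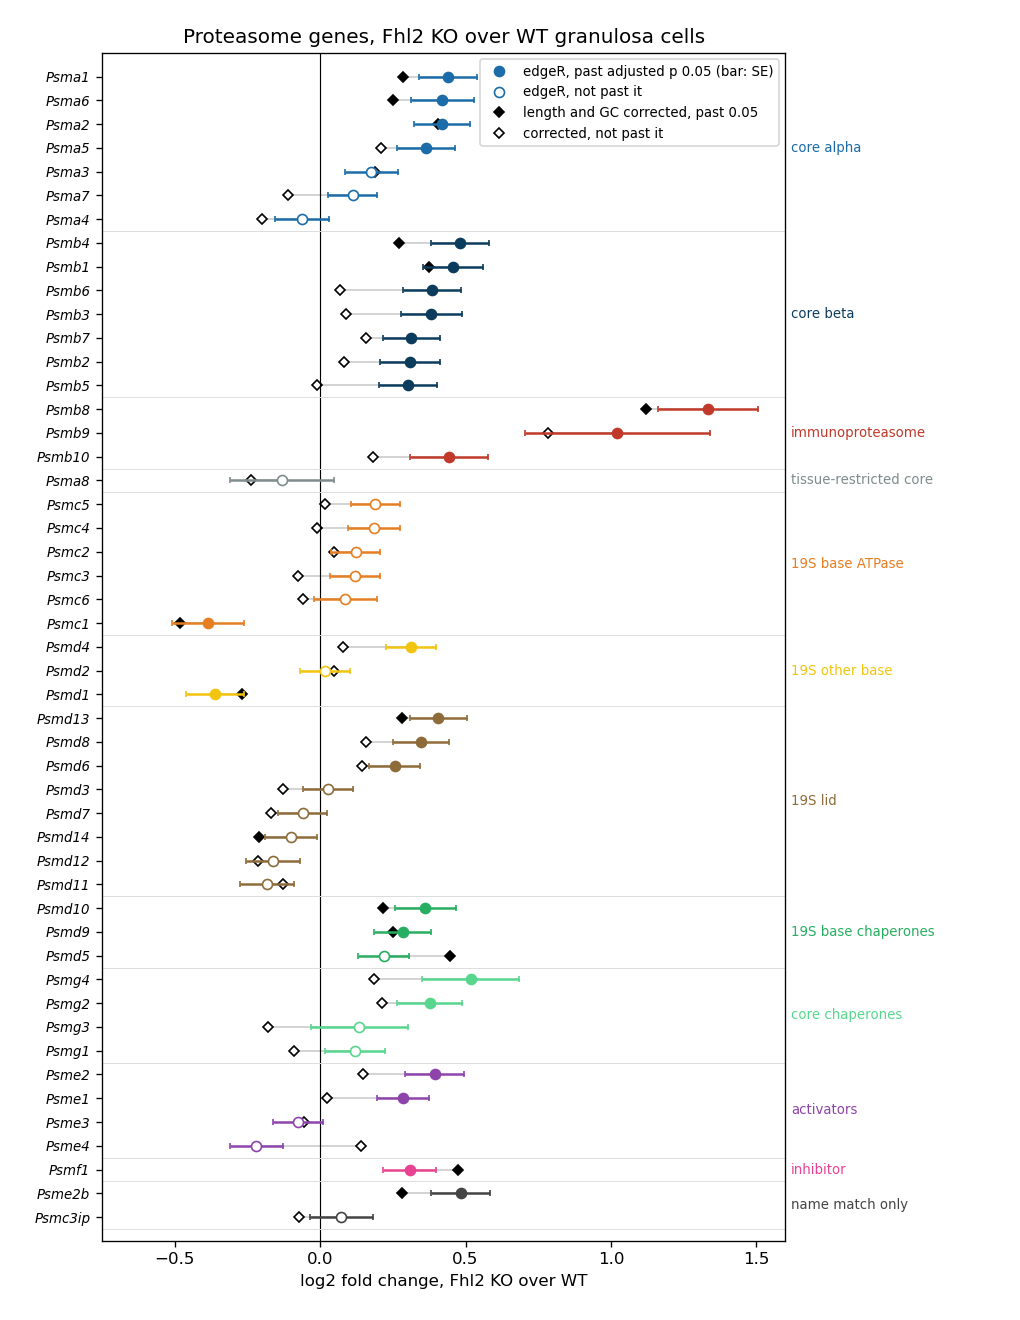
Log2 fold change of each tested proteasome gene, Fhl2 KO over WT, grouped by place in the complex, with bars of 1 SE and marks for the corrected value. The alpha and beta core genes lie mostly to the right of 0, the 19S genes lie on both sides of it, and Psmb8 and Psmb9 lie farthest right.

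The promoters of 4 genes are shown first, as the immunoproteasome genes Psmb8 and Psmb9, the standard beta subunit gene with the highest fold change (Psmb4), and the ATPase gene that fell (Psmc1) stand for the different directions seen in the complex. Each window runs from 250 bases before to 50 bases after the RefSeq start (GRCm38.p6), 5′ to 3′ on the strand of the gene. Capitals mark the motifs searched: CCAAT, bound by the factor NF-Y, and TGANNNNGC, the core of the antioxidant response element, which NRF1 (gene Nfe2l1) and NRF2 (gene Nfe2l2) bind. The third motif searched, the core of the interferon-stimulated response element (a pair of GAAA with 2 bases between them), was in none of these 4 windows.
Psmb8, chr17:34197945-34198244 (+ strand): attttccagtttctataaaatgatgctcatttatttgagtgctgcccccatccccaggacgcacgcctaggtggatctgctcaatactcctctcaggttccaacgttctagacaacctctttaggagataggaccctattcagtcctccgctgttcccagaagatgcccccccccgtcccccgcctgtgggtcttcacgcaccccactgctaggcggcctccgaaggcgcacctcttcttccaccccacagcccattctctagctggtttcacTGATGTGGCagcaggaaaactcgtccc
Psmb9, chr17:34187281-34187580 (- strand): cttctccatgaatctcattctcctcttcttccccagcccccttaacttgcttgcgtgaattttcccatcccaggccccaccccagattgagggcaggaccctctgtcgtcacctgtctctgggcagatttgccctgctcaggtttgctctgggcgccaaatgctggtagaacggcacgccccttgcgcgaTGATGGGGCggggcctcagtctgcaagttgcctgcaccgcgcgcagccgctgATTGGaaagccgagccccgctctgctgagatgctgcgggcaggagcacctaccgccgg
Psmb4, chr3:94886909-94887208 (- strand): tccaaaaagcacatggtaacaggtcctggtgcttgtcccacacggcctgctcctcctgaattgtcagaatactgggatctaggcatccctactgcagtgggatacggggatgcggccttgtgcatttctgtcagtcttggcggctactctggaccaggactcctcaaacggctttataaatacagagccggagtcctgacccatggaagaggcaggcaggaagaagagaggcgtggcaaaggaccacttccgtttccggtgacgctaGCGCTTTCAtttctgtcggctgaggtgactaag
Psmc1, chr12:100109952-100110251 (+ strand): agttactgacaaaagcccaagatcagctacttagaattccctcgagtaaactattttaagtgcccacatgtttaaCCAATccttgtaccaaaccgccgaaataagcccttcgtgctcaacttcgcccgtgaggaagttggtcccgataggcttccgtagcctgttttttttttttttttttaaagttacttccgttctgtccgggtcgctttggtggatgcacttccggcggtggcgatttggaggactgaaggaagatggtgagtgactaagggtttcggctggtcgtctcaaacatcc

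Windows were given for 39 of the proteasome genes and for 27025 genes in all. Both strands were searched, and motifs were free to overlap. CCAAT stood in 13 of the 39 proteasome windows (33.3%) and in 41.1% of all windows. TGANNNNGC stood in 22 of them (56.4%) and in 45% of all windows, and the interferon-stimulated element in 5 of them (12.8%), those of Psmb3, Psmd4, Psmd9, Psme1 and Psmg4, and in 3.99% of all windows. By class, CCAAT stood in 5 of 7 alpha windows and 1 of 4 beta windows, and TGANNNNGC in 4 of 7 alpha windows and in each of the 4 beta windows. No immunoproteasome window, of 3 searched, held the interferon-stimulated element. These are matches of letters in a window, and binding was not measured.

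The alpha subunits form the gated outer rings through which substrates enter. Of 7 tested alpha genes, 4 were higher in Fhl2 KO cells, Psma1, Psma2, Psma5 and Psma6 (57.1%, against 13.5% of all genes). None was lower, where 15.6% of all genes were, and 3 did not pass. The median log2 fold change of the 7 was 0.36. Psma1 had 118, 158 and 154 CPM in Fhl2 KO libraries 1 to 3, against 104, 106, 109.5 and 102 CPM in WT libraries 1 to 4, and every Fhl2 KO library exceeded every WT library. Its log2 fold change was 0.44 ± 0.100 (SE; edgeR adjusted p = 0.00488). Psma5, the smallest of the called changes, had 119.6, 150.3 and 159 CPM in Fhl2 KO libraries against 112, 118, 109 and 105 CPM in WT libraries. Its first Fhl2 KO library lay just above the WT range, and its log2 fold change was 0.36 ± 0.0997 (SE; edgeR adjusted p = 0.0131). Psma2 averaged 292 ± 39.9 CPM in Fhl2 KO cells and 219 ± 6.30 CPM in WT cells (SD, n = 3 and 4), and Psma6 162 ± 28.4 CPM in Fhl2 KO cells and 121 ± 6.84 CPM in WT cells. The log2 fold changes of the genes that did not pass were 0.18 for Psma3, 0.11 for Psma7 and -0.06 for Psma4. With corrected values Psma1, Psma2 and Psma6 remained past the threshold, and Psma5 (0.21) did not. The call of Psma5 was also lost without Fhl2 KO library 3, as was that of Psma6.

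The beta subunits build the inner rings. All 7 standard beta genes were called higher in Fhl2 KO cells, where 13.5% of all genes were. Their log2 fold changes lay within a narrow range from 0.30 to 0.48, with a median of 0.38. Psmb4, a non-catalytic subunit, was the highest of them. It had 239, 299 and 323 CPM in Fhl2 KO libraries, against 201, 215, 202 and 204 CPM in WT libraries, with no overlap, a log2 fold change of 0.48 ± 0.0994 (SE; edgeR adjusted p = 0.00276) and a corrected value of 0.27, which also passed. Psmb5, which carries the chymotrypsin-like site, was the lowest. Its values were 96.6, 124 and 130.0 CPM in Fhl2 KO libraries and 96.9, 93.6, 98.8 and 89.8 CPM in WT libraries, so Fhl2 KO library 1 lay inside the WT range. The log2 fold change of Psmb5 was 0.30 ± 0.101 (SE; edgeR adjusted p = 0.0327), and its corrected value was -0.01.

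Psmb6, with the caspase-like site, had 142, 181 and 193 CPM in Fhl2 KO libraries against 134, 137, 127 and 130.0 CPM in WT libraries. Psmb7, with the trypsin-like site, had 124, 152 and 163 CPM in Fhl2 KO libraries against 114, 125, 115 and 118 CPM in WT libraries. Psmb6 was above WT in each Fhl2 KO library, and Psmb7 was not in the first; their log2 fold changes were 0.39 and 0.31 (edgeR adjusted p = 0.0103 and 0.0238). The non-catalytic Psmb1, Psmb2 and Psmb3 had log2 fold changes of 0.46, 0.31 and 0.38. With corrected values 2 of the 7 beta genes, Psmb1 and Psmb4, passed as higher, where 12.0% of all genes did, and the class median was 0.09. Without Fhl2 KO library 3, Psmb4 was the only one of the 7 still called. The calls of Psmb2, Psmb5 and Psmb7 were each lost as well without Fhl2 KO library 2 and without WT libraries 1, 3 or 4, and that of Psmb5 without WT library 2.

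Each immunoproteasome gene was higher in Fhl2 KO cells, and all were low in these cells. Psmb8, which replaces Psmb5, lies at chr17:34197721-34201454 (mm10, + strand), inside the MHC region. It was counted 209, 255 and 348 times in Fhl2 KO libraries 1 to 3, against 91, 118, 129 and 99 times in WT libraries 1 to 4. These counts are 5.33, 5.43 and 7.64 CPM in Fhl2 KO libraries against 2.35, 2.35, 2.76 and 2.27 CPM in WT libraries, so the lowest Fhl2 KO library was clear of the highest WT library. The log2 fold change was 1.33 ± 0.173 (SE; edgeR adjusted p = 6.46e-05), a 2.52-fold difference, and 1.12 with corrected values. Psmb8 was the only proteasome gene that passed in each of the 17 alternatives that tested it, with adjusted p from 4.92e-11 to 0.00510. One of these set Fhl2 KO library 1 alone against WT, where the WT libraries alone give the spread and the lone library is assumed to vary like them, so that it adds no replicate check.

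Psmb9, which replaces Psmb6 and lies beside Psmb8 at chr17:34181987-34187764 (- strand), was counted 65, 92 and 84 times in Fhl2 KO libraries and 50, 24, 56 and 28 times in WT libraries. The values were 1.66, 1.96 and 1.84 CPM in Fhl2 KO libraries against 1.29, 0.478, 1.20 and 0.641 CPM in WT libraries. The groups did not overlap, but the WT libraries spread over a wider range than the Fhl2 KO libraries. The log2 fold change was 1.02 ± 0.318 (SE; edgeR adjusted p = 0.0237). The call was lost with corrected values (0.78), and without Fhl2 KO library 2 or 3 or WT library 2 or 4, with adjusted p of up to 0.334 over the alternatives.

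Psmb10, which replaces Psmb7, had 14.9, 22.5 and 21.7 CPM in Fhl2 KO libraries and 15.1, 15.8, 12.8 and 14.3 CPM in WT libraries. Its first Fhl2 KO library lay within the WT range and the other two above it. The log2 fold change of Psmb10 was 0.44 ± 0.133 (SE; edgeR adjusted p = 0.0203), and 0.18 with corrected values, which did not pass. Its call was also lost without Fhl2 KO library 2 or 3 or WT library 3 or 4. Exon bases of Psmb8 overlap the opposite-strand gene Gm20496 over 14.7% of their length, and Gm20496 had 0 counts in every library. Exon bases of Psmb9 overlap its neighbour Tap1 over 5.79% of their length, and the strand setting of the counting is not given in the sources used here.

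**Figure D2:**
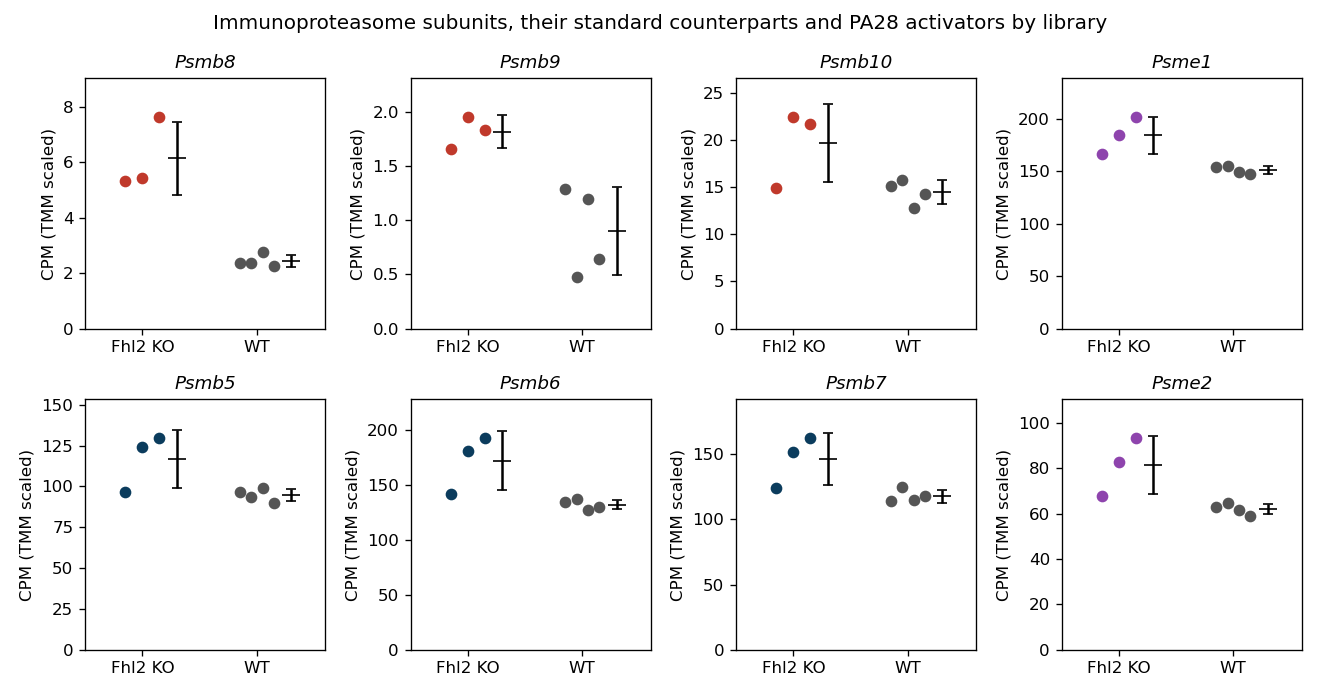
CPM of Psmb8, Psmb9 and Psmb10 (top row), of the standard subunits they replace (below them) and of Psme1 and Psme2, in each library, with Fhl2 KO libraries 1 to 3 on the left and WT libraries 1 to 4 on the right of each panel; lines are mean ± SD and each axis starts at 0. All Psmb8 points of Fhl2 KO cells lie above those of WT cells, and the first Fhl2 KO library of Psmb10 lies within the WT range.

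To compare each immunoproteasome subunit with the standard subunit it replaces, reads of the one were counted per 100 reads of the other in the same library, which cancels library size. Psmb8 had 5.52, 4.39 and 5.88 reads per 100 reads of Psmb5 in Fhl2 KO libraries, against 2.43, 2.51, 2.79 and 2.53 in WT libraries. The mean log2 ratio was 1.03 higher in Fhl2 KO cells, or 2.04-fold, and each Fhl2 KO library exceeded each WT library. A two-sided exact permutation test over the 35 assignments of the group labels gave p = 0.0286, the smallest it allows, and 0.0857 after adjustment over the 3 pairs. Psmb9 had 1.17, 1.08 and 0.954 reads per 100 reads of Psmb6 in Fhl2 KO libraries and 0.967, 0.350, 0.944 and 0.493 in WT libraries, groups that overlapped (exact permutation p = 0.171, adjusted 0.257). Psmb10 had 12.1, 14.8 and 13.3 reads per 100 reads of Psmb7 in Fhl2 KO libraries and 13.3, 12.7, 11.1 and 12.1 in WT libraries, which also overlapped (exact permutation p = 0.371, adjusted 0.371). None of the 3 ratios thus passed 0.05 after adjustment. With 35 assignments, 1 pair alone at the smallest p cannot get below 0.0857. This outcome therefore does not speak to the size of the Psmb8 to Psmb5 difference. Scaled by transcript length, Psmb8 stood at 2.91% of the level of Psmb5 in Fhl2 KO cells and 1.42% in WT cells, Psmb9 at 0.631% of Psmb6 in Fhl2 KO cells and 0.406% in WT cells, and Psmb10 at 11.8% of Psmb7 in Fhl2 KO cells and 10.9% in WT cells. In both groups the standard catalytic subunits were thus the far more abundant transcripts.

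**Figure D3:**
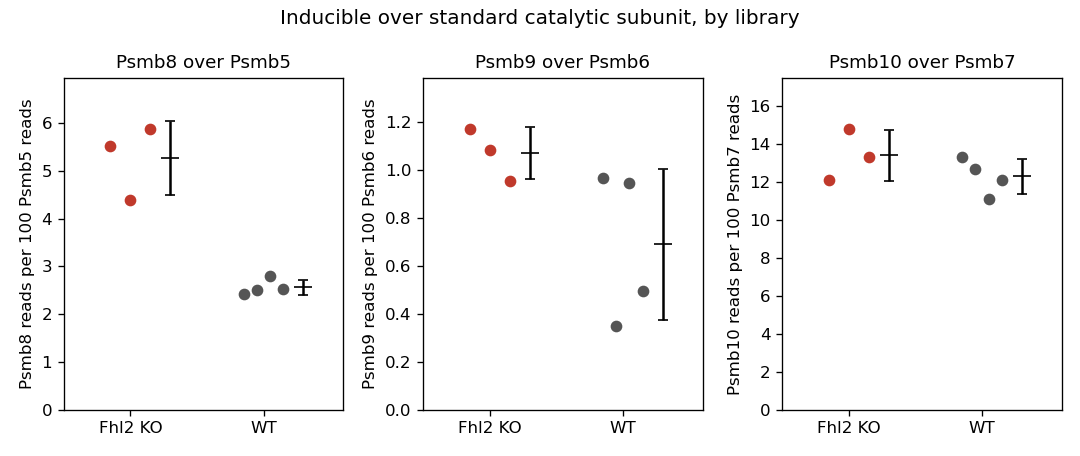
Reads of each immunoproteasome gene per 100 reads of the standard subunit it replaces in each library, Fhl2 KO on the left and WT on the right; lines are mean ± SD and each axis starts at 0. The ratio of Psmb8 to Psmb5 separates the groups, and the other ratios overlap.

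Immunoproteasome genes are high in leukocytes, so leukocyte markers are given beside them. Of 15 markers, 12 were tested. Of these, 3 were higher (Cd74, H2-Aa and H2-Ab1, genes of class II presentation), where 13.5% of all genes were higher, and none was lower. H2-Aa had 20, 12 and 26 counts in Fhl2 KO libraries and 10, 2, 5 and 8 in WT libraries, and the groups overlapped. It met the count filter only through the Fhl2 KO libraries, where it was high. Its call as higher therefore adds no support. With corrected values H2-Ab1 alone of the 12 was still called. The summed level of the list was 27.6 to 34.1 CPM in Fhl2 KO libraries and 25.4 to 26.6 CPM in WT libraries. Ptprc, which encodes the pan-leukocyte protein CD45, was counted 8, 12 and 4 times in Fhl2 KO libraries and 8, 0, 18 and 2 times in WT libraries. Cd3e, a T cell gene, was at 0 in every library. Other markers of the list had more reads. Lyz2 had 11.8, 16.9 and 12.9 CPM in Fhl2 KO libraries and 12.3, 11.8, 14.3 and 12.2 CPM in WT libraries. Cd68 had 5.56, 4.80 and 5.20 CPM in Fhl2 KO libraries and 5.99, 6.06, 4.75 and 5.18 CPM in WT libraries. Neither of these passed (edgeR adjusted p = 0.477 and 0.711). Class I presentation genes, to which immunoproteasome products are passed, had 5 of 12 higher (41.7%, against 13.5% of all genes) and none lower. H2-D1, a class I heavy chain, averaged 154 ± 10.6 CPM in Fhl2 KO cells and 89.0 ± 2.17 CPM in WT cells (SD, n = 3 and 4; log2 fold change 0.79, edgeR adjusted p = 7.94e-06). H2-K1 rose by 0.64 and the peptide transporter gene Tap1 by 0.60 on the log2 scale (edgeR adjusted p = 1.18e-04 and 0.00219). With corrected values 5 of the 12 class I genes were higher (41.7%, against 12.0% of all genes) and 1 was lower (8.33%, against 10.8% of all genes). There B2m lost its call (log2 fold change 0.21) and Calr passed as lower (-0.23), genes named after their values were seen. Lung markers, which also differed between the groups, were unevenly spread: Sftpc was counted 121, 409 and 12 times in Fhl2 KO libraries and 4, 0, 0 and 0 times in WT libraries. The part of leukocytes or of lung transcripts in the immunoproteasome and class I values was not tested.

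Genes of the 19S cap changed in both directions. The 17 genes had a median log2 fold change of 0.09, with 4 higher (23.5%, against 13.5% of all genes), 2 lower (11.8%, against 15.6%) and 11 not called, shares not far from those of all genes, beside 11 of 14 higher and none lower for the standard core, whose median was 0.37. With corrected values Psmd13 alone of the 19S genes was called higher, and Psmc1, Psmd1 and Psmd14 were called lower. In the standard core Psma1, Psma2, Psma6, Psmb1 and Psmb4 were still called higher. Of all genes, 12.0% were called higher and 10.8% lower with corrected values. The difference between these 2 classes was not tested. Among the 6 ATPases, which unfold the substrate, none was higher, where 13.5% of all genes were. Psmc1 was lower (16.7% of the 6, against 15.6% of all genes). Psmc1 (chr12:100110154-100123405, mm10, + strand) had 775, 536 and 536 CPM in Fhl2 KO libraries, against 770.3, 732, 868 and 848 CPM in WT libraries. Its first Fhl2 KO library lay inside the WT range and the other two far below it, for a log2 fold change of -0.39 ± 0.124 (SE; edgeR adjusted p = 0.0289) and a corrected value of -0.48. The call was lost without Fhl2 KO library 2 or 3 or WT library 3 or 4. Log2 fold changes of the other ATPase genes were 0.12 for Psmc2, 0.12 for Psmc3, 0.18 for Psmc4, 0.19 for Psmc5 and 0.09 for Psmc6, none of which passed.

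Of the rest of the base, 1 gene was higher, 1 was lower and 1 did not pass, where 13.5% of all genes were higher and 15.6% lower. Psmd4, a ubiquitin receptor, had 298, 338 and 344 CPM in Fhl2 KO libraries, against 268, 256, 264 and 265 CPM in WT libraries. Each Fhl2 KO library lay above the WT libraries, with a log2 fold change of 0.31 ± 0.0860 (SE; edgeR adjusted p = 0.0133), which was 0.08 and not past the threshold with corrected values. Psmd1, a large scaffold, had 239, 199.6 and 184 CPM in Fhl2 KO libraries, against 257, 245, 286 and 279 CPM in WT libraries. All Fhl2 KO values were below WT, with a log2 fold change of -0.36 ± 0.101 (SE; edgeR adjusted p = 0.0140) and a corrected value of -0.27 that passed. The call of Psmd4 was lost without Fhl2 KO library 3, and that of Psmd1 without Fhl2 KO library 3 or WT library 3 or 4. The other scaffold, Psmd2, stood at 629.6 ± 33.8 CPM in Fhl2 KO cells and 622 ± 30.1 CPM in WT cells (SD, n = 3 and 4), a log2 fold change of 0.02 that did not pass.

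The lid removes ubiquitin chains before the substrate is unfolded. Of its 8 genes 3 were higher, Psmd6, Psmd8 and Psmd13 (37.5%, against 13.5% of all genes). None was lower, where 15.6% of all genes were, and 5 did not pass. The median log2 fold change of the 8 was -0.02. Psmd13 was counted 4420, 6515 and 6895 times in Fhl2 KO libraries, against 3873, 5352, 4715 and 4273 times in WT libraries, or 134 ± 19.8 CPM in Fhl2 KO cells and 101 ± 3.74 CPM in WT cells (SD, n = 3 and 4). On the CPM scale the groups did not overlap (log2 fold change 0.41 ± 0.0990, SE; edgeR adjusted p = 0.00698). Psmd6 had 147, 146 and 146 CPM in Fhl2 KO libraries, against 111, 130.0, 131 and 119 CPM in WT libraries. The Fhl2 KO libraries were close together and above the WT libraries, for a log2 fold change of 0.26 ± 0.0884 (SE; edgeR adjusted p = 0.0377). Psmd8 averaged 1039 ± 135 CPM in Fhl2 KO cells and 818 ± 20.9 CPM in WT cells (SD, n = 3 and 4; log2 fold change 0.35). Psmd14, the deubiquitinase of the lid, had a log2 fold change of -0.10, and Psmd7, its partner, -0.06. The remaining values were 0.03 for Psmd3, -0.18 for Psmd11 and -0.16 for Psmd12. With corrected values Psmd13 remained higher, Psmd6 and Psmd8 did not pass, and Psmd14 passed as lower (-0.21). The call of Psmd6 was lost without Fhl2 KO library 2 or 3 or WT library 1 or 4, that of Psmd8 without Fhl2 KO library 3 or WT library 4, and that of Psmd13 without Fhl2 KO library 3.

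Assembly chaperones are not part of the finished particle. Of 7 tested, 4 were higher (57.1%, against 13.5% of all genes) and none was lower, where 15.6% of all genes were. Psmg1 to Psmg4 assist assembly of the alpha ring. Psmg4 had 7.24, 10.3 and 9.09 CPM in Fhl2 KO libraries, against 4.34, 7.01, 6.39 and 6.98 CPM in WT libraries, with its lowest Fhl2 KO value close to the highest WT value (log2 fold change 0.52 ± 0.168, SE; edgeR adjusted p = 0.0292). Psmg2 rose by 0.38 on the log2 scale (edgeR adjusted p = 0.0185), and Psmg1 and Psmg3, which did not pass, had values of 0.12 and 0.14. Psmd5, Psmd9 and Psmd10 hold modules of the ATPase ring before the cap is complete. Psmd9 had 37.7, 45.5 and 47.3 CPM in Fhl2 KO libraries, against 35.7, 37.3, 35.7 and 34.4 CPM in WT libraries, just without overlap (log2 fold change 0.28 ± 0.0977, SE; edgeR adjusted p = 0.0374). Psmd10 rose by 0.36 (edgeR adjusted p = 0.0171), and Psmd5 had a log2 fold change of 0.22 that did not pass. With corrected values Psmd5 (0.45), Psmd9 (0.25) and Psmd10 (0.22) all passed as higher and none of Psmg1 to Psmg4 did. The calls of Psmg2, Psmg4, Psmd9 and Psmd10 were each lost without Fhl2 KO library 2 and without Fhl2 KO library 3. That of Psmg4 was lost as well without WT library 1 or 3, that of Psmd9 without WT library 1, 3 or 4, that of Psmg2 without WT library 3 and that of Psmd10 without WT library 4.

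Activators open the core without the 19S cap. Psme1 and Psme2, the interferon-inducible pair that forms one ring (PA28 alpha and beta), were both higher. Psme1 had 166, 184 and 202 CPM in Fhl2 KO libraries, against 154, 155, 149 and 147 CPM in WT libraries (log2 fold change 0.29 ± 0.0885, SE; edgeR adjusted p = 0.0233). Psme2 had 67.9, 82.7 and 93.6 CPM in Fhl2 KO libraries, against 62.9, 64.5, 61.4 and 59.1 CPM in WT libraries (log2 fold change 0.39 ± 0.102, SE; edgeR adjusted p = 0.00989). For both, each Fhl2 KO library exceeded each WT library, but neither passed with corrected values (0.02 and 0.15) or without Fhl2 KO library 3, and Psme1 did not without WT library 3 or 4. Of the Psme2 transcript, 59.3% of 50-base stretches are shared with the near-identical gene Psme2b, which had a log2 fold change of 0.48 (edgeR adjusted p = 0.00288), so how reads were divided between these 2 genes is uncertain.

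Psme3, a nuclear activator, had 246, 238 and 261 CPM in Fhl2 KO libraries, against 268, 277, 247 and 255 CPM in WT libraries, which overlapped (log2 fold change -0.08, edgeR adjusted p = 0.543). Psme4, which caps the core as PA200, had 59.8, 63.0 and 62.1 CPM in Fhl2 KO libraries, against 68.6, 69.1, 80.7 and 68.7 CPM in WT libraries. All its Fhl2 KO values lay below WT, but the change of -0.22 did not pass (edgeR adjusted p = 0.0774), and with corrected values it was 0.14, of opposite sign. Psmf1, named for its inhibition of the core in vitro, had 46.7, 48.5 and 48.0 CPM in Fhl2 KO libraries, against 37.0, 40.8, 35.6 and 40.8 CPM in WT libraries. Its groups were apart, with a log2 fold change of 0.31 ± 0.0909 (SE; edgeR adjusted p = 0.0186) and a corrected value of 0.47 that passed. The call was lost without Fhl2 KO library 3 or WT library 1 or 3.

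Transcripts of tissue-restricted core subunits were scarce. Psma8, the alpha subunit of testis proteasomes, averaged 2.70 ± 0.348 CPM in Fhl2 KO cells and 2.96 ± 0.160 CPM in WT cells (SD, n = 3 and 4) and did not pass. Psmb11, the thymic beta subunit, was not tested: it had 0, 14 and 0 counts in Fhl2 KO libraries and 0 in each WT library. Counts of 0 allow up to 0.0594 to 0.0772 CPM in a library, which covers counting error only. Of the rows that match by name alone, Psmc3ip, a meiotic recombination factor, had a log2 fold change of 0.07 that did not pass. Psmb5-ps, Psmb6-ps, Psmb6-ps2 and Psmb7-ps2 had at most 3 counts in any library and were not tested.

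Per kilobase of transcript, the levels spanned a wide range. Psmd8 was the most abundant, at 675 CPM per kilobase in Fhl2 KO cells and 531 in WT cells, and Psmb9 the least, at 1.35 in Fhl2 KO cells and 0.667 in WT cells. Summed over the standard core and 19S genes, proteasome transcripts took up 0.765% of all counts in Fhl2 KO cells and 0.707% in WT cells. The 49 genes lie on 16 chromosomes. In 16 of them more than 10% of the 50-base stretches of the transcript occur in other genes, among them Psmb5 (57.1%), Psmb3 (55.8%) and Psma5 (55.4%), so their levels depend on how shared reads were assigned.

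The changes followed transcript length across the whole transcriptome. The median log2 fold change was 0.29 among genes with the shortest transcripts and -0.38 among those with the longest, of 10 equal bins of length. From this trend and GC content alone, the median expected shift was 0.15 over the 49 proteasome genes and 0.01 over all genes, and it ran from -0.35 for Psme4 to 0.32 for Psmg4. Of the 26 genes called higher, 11 were still called with corrected values: Psma1, Psma2, Psma6, Psmb1, Psmb4, Psmb8, Psmd9, Psmd10, Psmd13, Psme2b and Psmf1. Psmc1 and Psmd1 remained lower. The correction also removes any true change that goes with length, and the 2 cannot be told apart here.

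**Figure D4:**
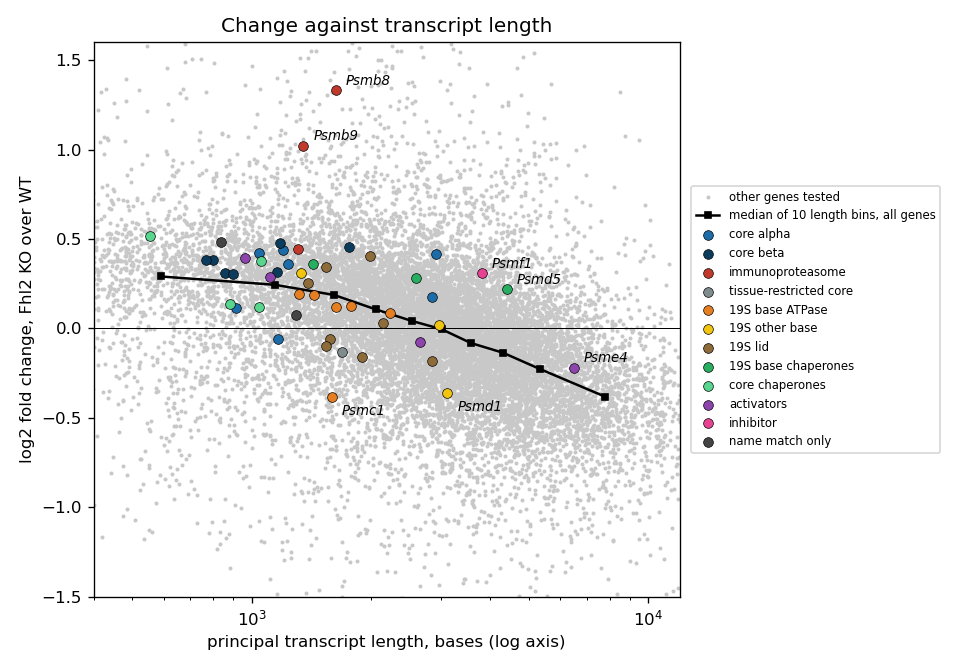
Log2 fold change, Fhl2 KO over WT, against transcript length (log scale) for the proteasome genes (coloured by class) and all other tested genes (grey; a few lie beyond the axis), with a line for the median of all genes in each of 10 bins of length. The line of medians falls from 0.29 to -0.38, most proteasome genes lie along its left part, and Psmb8 and Psmb9 lie well above it.

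Fhl2 KO library 1 stood apart from the others of its group in these genes. The median difference of the 14 standard core genes from the WT mean was 0.094 in Fhl2 KO library 1, 0.440 in library 2 and 0.525 in library 3, on the log2 CPM scale, while the 4 WT libraries lay between -0.027 and 0.052. For the 17 genes of the 19S cap the medians were 0.034, 0.065 and 0.124 in Fhl2 KO libraries 1 to 3. For the immunoproteasome genes they were 0.998, 1.165 and 1.153, medians of 3 genes of which Psmb10 lay within the WT range in library 1. With corrected values the core medians were 0.026, 0.172 and 0.286, those of the 19S cap -0.008, -0.092 and -0.018, and those of the immunoproteasome 0.847, 0.934 and 0.771.

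**Figure D5:**
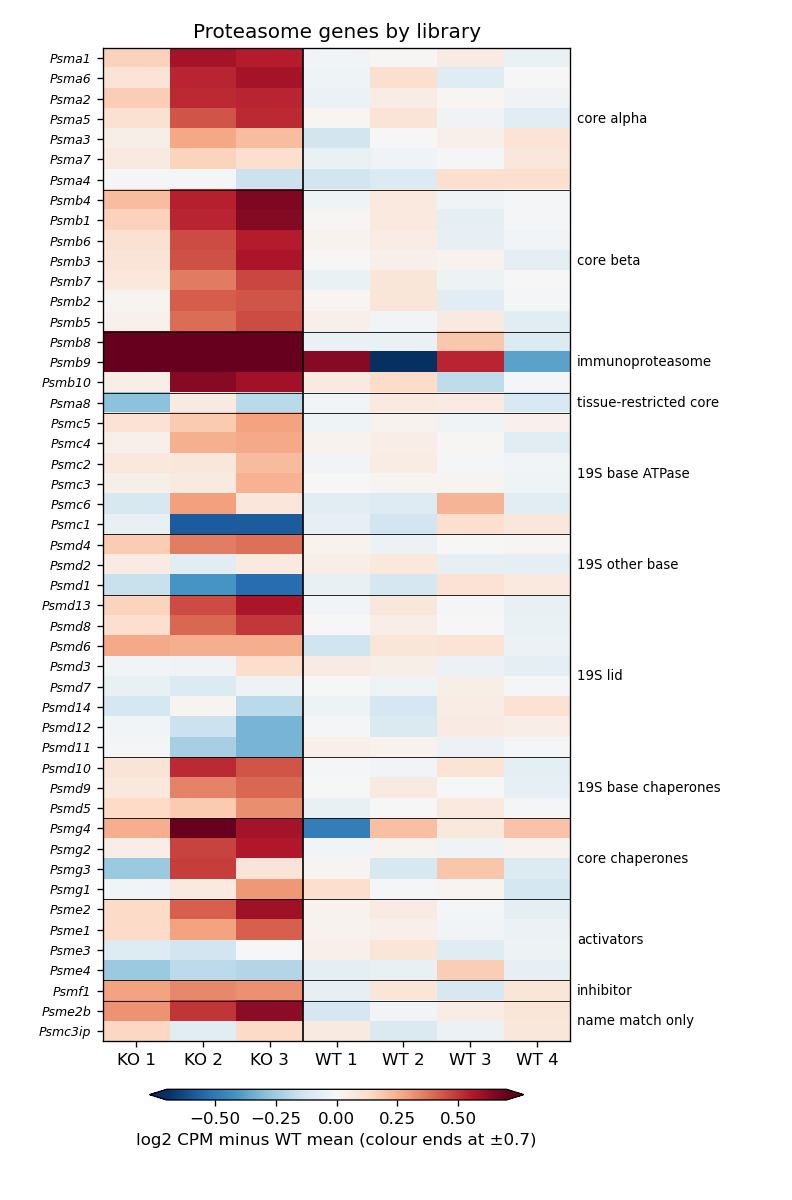
Log2 CPM of each tested proteasome gene in each library relative to the WT mean, Fhl2 KO libraries on the left and WT libraries on the right, genes grouped by class; colour gives the size and direction and saturates at 0.7 on either side. Core genes are close to the WT mean in Fhl2 KO library 1 and above it in Fhl2 KO libraries 2 and 3, and Psmb8 is above it in all of them.

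Genes that work with the proteasome but carry other names changed in both directions. Of 8 tested partners and subunits, 3 were higher (37.5%, against 13.5% of all genes) and 2 were lower, where 15.6% of all genes were. The higher ones were Pomp, the core maturation factor (327 ± 46.3 CPM in Fhl2 KO cells and 244 ± 15.3 CPM in WT cells, SD, n = 3 and 4; log2 fold change 0.43, edgeR adjusted p = 0.00582), Sem1, a small lid subunit (0.37, adjusted p = 0.00748), and Adrm1, a ubiquitin receptor (0.29, adjusted p = 0.0211). Uchl5, the deubiquitinase bound to ADRM1, fell by 0.38 (edgeR adjusted p = 0.0103), and Ecpas, an adaptor of the 26S particle, fell by 0.23 (edgeR adjusted p = 0.0459). With corrected values Pomp and Uchl5 still passed, Sem1 and Adrm1 did not, and Ecpas had a value of 0.15, of opposite sign. Without Fhl2 KO library 3 none of these 5 calls was kept, nor was that of Adrm1 without WT library 4 or that of Ecpas without Fhl2 KO library 2 or any WT library.

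Rps27a and Ubb, genes that encode ubiquitin, were also higher. Rps27a averaged 492 ± 81.9 CPM in Fhl2 KO cells and 342 ± 41.9 CPM in WT cells (SD, n = 3 and 4; log2 fold change 0.53, edgeR adjusted p = 0.00493). Ubb had a log2 fold change of 0.33 (edgeR adjusted p = 0.0132). That call was lost with corrected values (0.13), with length correction alone, with the replicate block and without Fhl2 KO library 3. Of 9 genes that control transcription of the subunits none was higher and 1 was lower (11.1%, against 15.6% of all genes). That was Ddi2, the protease that releases NRF1 (log2 fold change -0.61, edgeR adjusted p = 0.00387, corrected -0.17 and not past the threshold). Of 11 shuttle and segregase genes, which carry ubiquitinated proteins to the proteasome, none was higher and 1 was lower (9.09%, against 15.6% of all genes). Ubqln2 fell by 0.24 (edgeR adjusted p = 0.0434), a call that was lost under 14 alternatives, leaving out any of 6 libraries among them.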

How the data were processed

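RNA-seq of 7 mouse granulosa cell libraries was analysed from 1 table of gene counts. The authors deposited raw read counts per gene, not normalized. Per the labels' protocols, TRIzol was used to isolate total RNA and the library kit keeps strand and selects mRNA. The submitters' processing notes name featureCounts 1.6.4 and HISAT2 2.2.1 (build mm10), beside fastp, SAMtools, DESeq2 1.28.1 and Cufflinks 2.2.1. How these were set, which annotation was used and whether counting used strand is not given in the sources used here.

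Counts were filtered with filterByExpr (minimum count 10), which left 15798 of 55228 genes, 25188 of the rest being 0 in all libraries, then scaled by TMM and tested for Fhl2 KO over WT with edgeR 4.0.16 (quasi-likelihood, robust) in R 4.3.3. P-values were adjusted by Benjamini-Hochberg over all tested genes, with a threshold of 0.05. CPM are TMM-scaled. The corrected values come from a fit with offsets from a spline (4 df) of each library's log2 CPM on transcript length and GC content (GENCODE M21). Pair ratios were tested by exact permutation over the 35 assignments of the group labels. Alternatives were DESeq2 1.42.0, limma 3.58.1 voom with quality weights, other size factors, other filters, leaving out each library, a replicate block, Fhl2 KO library 1 alone, and length correction. The edgeR fits, with and without the correction, were also run on simulated counts. There all Fhl2 KO libraries shared the same length trend or had none, unlike the measured libraries. The simulation therefore does not cover libraries with unequal trends.

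Totals lay between 38855596 and 50514556 counts, so 3 counts are 0.0594 to 0.0772 CPM. No 2 libraries of a group agreed within sampling noise (chi-square per degree of freedom of at least 9.72). Replicate numbers did not pair the libraries. Every tested proteasome gene is named; values per library are given for the immunoproteasome genes and their standard counterparts, the activators, Psmf1, and the called genes with the highest and lowest fold change of each class. The members and the gene lists were chosen with earlier results of these data known. One gene of the context lists is not reported here. Promoter windows are from RefSeq (GRCm38.p6).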

Additional observations from a re-analysis of the deposited data

Results flagged for a closer look

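In 4 of the 63 sets of WT values examined for the proteasome genes and their partners, 1 library stood far from the other 3, and chance flags about 1 in 20 such sets. Psmb8 had 2.76 CPM in WT library 3 and 2.27 to 2.35 CPM in the others. Psmc6 had 93.1 CPM in WT library 3 and 74.0 to 74.9 CPM in the others. Psme4 had 80.7 CPM in WT library 3 and 68.6 to 69.1 CPM in the others. Psmc2 had 144 CPM in WT library 2 and 137 to 138 CPM in the others. Of these genes only Psmb8 was called different between Fhl2 KO and WT, and its call was kept without WT library 3. The cause was not tested.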

How the results depend on the processing

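Among single genes, 870 of 1129 alternative values kept direction and call, 204 lost the call, 22 gained one and 33 changed sign; the causes were not tested. Genes called numbered 4588, against 2960 over the same 6 libraries, unpaired, 781 for Fhl2 KO library 1 alone, and 1657 to 6740 when 1 library was left out. Proteasome genes higher numbered 26, against 16 over the same 6 libraries, 15 with a replicate block, 12 with the length and GC correction, 8 with length alone, 1 for Fhl2 KO library 1 alone, and 5 to 30 with 1 library left out. Genes lower numbered 2, against 4 with voom, 6 with length alone, 0 over the same 6 libraries, 0 for Fhl2 KO library 1 alone, and 0 to 4 with 1 library left out. Their median log2 fold change was 0.28, against 0.070 for library 1 alone, 0.082 with length and GC and 0.096 with length alone. Replicate numbers did not pair the libraries (same-number correlations 0.0326, -0.0013 and -0.0324); the block gave 3301 calls in all. The replicate block changed the log2 ratio of Psmb8 to Psmb5 to 1.022, of Psmb9 to Psmb6 to 0.639 and of Psmb10 to Psmb7 to 0.111. With 1 library left out these ratios ran over 0.943 to 1.153, 0.475 to 0.963 and 0.042 to 0.190. Signs turned, with the length and GC correction, for Psmc3 (-0.076), Psma7 (-0.112), Psmg3 (-0.179), Psmc4 (-0.010), Psme4 (0.140), Psmd3 (-0.128), Psmc3ip (-0.072), Psmc6 (-0.057), Psmb5 (-0.012), Psmg1 (-0.089) and Ecpas (0.151). With length alone they turned for Psmc3 (-0.031), Psma7 (-0.129), Psmc2 (-0.008), Psmg3 (-0.121), Psme4 (0.105), Psmd3 (-0.057), Psmc3ip (-0.117), Psmc5 (-0.002), Psmg1 (-0.109) and Ecpas (0.116). For Fhl2 KO library 1 alone they turned for Psmg3 (-0.265), Psmd3 (-0.020), Psmc6 (-0.122) and Psmg1 (-0.020). With 1 library left out, Psmg3 ran from -0.065 to 0.316, Psmd3 from -0.022 to 0.071, Psmc6 from -0.009 to 0.201 and Psmd2 from -0.009 to 0.070, the lowest value without Fhl2 KO library 2 for Psmg3 and Psmc6 and without Fhl2 KO library 3 for Psmd3 and Psmd2. Psmd2 was -0.002 over the same 6 libraries and with the block. Depth limits Psmb9, which had 24 to 92 counts per library, and Psmb8, Psmb9, Psma8, Psmg3 and Psmg4 were not tested under the filter of 10 CPM.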
